A study of Mus musculus with 30 samples.

Results

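The transcripts of 9 hepatocyte genes were followed in fetal liver and lung after exposure of the dams to PFOS (perfluorooctane sulfonate), a fluorinated surfactant that persists in the body. The genes are Afp and Alb, which encode the main plasma proteins of the fetus and of the adult, and Tat, Tdo2, Mug1, Azgp1, Pzp, Hpd and Car3, which were picked as genes that mature late in liver. The 9 genes were listed by symbol out of 18193 genes with a probe set of 1 symbol, and all 9 were found. Where a gene had several probe sets, the one used was chosen by its mean level over all 30 arrays, the highest being taken; this is the measured value that the choice used. Timed-pregnant CD-1 mice, an outbred stock, were gavaged with PFOS as the potassium salt in 0.5% Tween 20 at 0 (controls), 5 (the lower dose) or 10 mg/kg/day (the higher dose) from gestation day 1 to 17, and fetuses were collected on gestation day 18. Each array held RNA of 3 fetuses of 1 litter, and 5 litters were measured per tissue and dose, so sex and single fetuses cannot be separated. Levels are log2 RMA values, on which a difference of 1 is a doubling.

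Hepatocytes, the main metabolic cells of the liver, acquire their functions in waves. Afp, a fetal carrier protein of the albumin family, is made at high level before birth and is shut down afterwards, while many amino acid enzymes and secreted proteins start late in gestation or around birth. Glucocorticoids and nutrition are known to drive the start of several of them, Tat and Tdo2 among these.

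Alb and Afp lie next to each other in the mouse genome and in the same orientation. In build GRCm38.p6, RefSeq places Alb at chr5:90460870-90476602 and Afp at chr5:90490714-90508907, with 14111 bases between them. The 150 bases before the start of each gene are shown to set the neighbours, which stayed within a narrow range in every liver litter, beside Tdo2 and Azgp1, which were lower with PFOS, and beside Pzp, which followed Mug1 from litter to litter. Capitals mark 4 motifs, each searched on both strands. They are GTTAAT, which is a half-site of the factor HNF1, the promoter element CCAAT, the nuclear receptor half-site written as AGGTCA, and a glucocorticoid receptor half-site with the letters TGTTCT. No searched match overlapped another in these windows.
Alb: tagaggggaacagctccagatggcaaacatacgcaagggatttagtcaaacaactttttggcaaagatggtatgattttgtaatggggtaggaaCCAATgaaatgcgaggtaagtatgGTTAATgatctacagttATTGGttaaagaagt
Afp: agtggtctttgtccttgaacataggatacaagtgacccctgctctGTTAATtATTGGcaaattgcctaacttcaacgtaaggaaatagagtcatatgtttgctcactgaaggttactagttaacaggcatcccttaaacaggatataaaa
Tdo2: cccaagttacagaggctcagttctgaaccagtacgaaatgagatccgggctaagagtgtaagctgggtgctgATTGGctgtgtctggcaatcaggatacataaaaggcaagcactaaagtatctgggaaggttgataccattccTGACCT
Azgp1: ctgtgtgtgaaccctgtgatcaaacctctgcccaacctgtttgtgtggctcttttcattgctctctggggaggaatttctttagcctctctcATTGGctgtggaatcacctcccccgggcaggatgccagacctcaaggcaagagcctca
Pzp: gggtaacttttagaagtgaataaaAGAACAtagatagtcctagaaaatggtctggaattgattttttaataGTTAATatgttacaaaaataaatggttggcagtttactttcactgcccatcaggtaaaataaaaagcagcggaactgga

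The windows are chr5:90460720-90460869 (+) for Alb, chr5:90490564-90490713 (+) for Afp, chr3:81975729-81975878 (-) for Tdo2, chr5:137981371-137981520 (+) for Azgp1 and chr6:128526721-128526870 (-) for Pzp, from RefSeq promoters of GRCm38.p6. RefSeq promoters were matched for 8 of the 9 genes, and Car3 is named only. The RefSeq starts used for Mug1 and Tat lie inside the annotated span of these genes, so their windows are not shown and are left out of the following. The window of Hpd was searched too and held none of the 4 motifs, and it is not shown. GTTAAT was found in Alb, Afp and Pzp, against 3.7% of 32851 promoter windows of the same length. CCAAT was found in Alb, Afp, Tdo2 and Azgp1, against 24.5% of windows. AGGTCA was found in Tdo2, against 8.6%, and TGTTCT in Pzp, against 9.6%. These are matches of letters, and binding was not measured.

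The liver arrays carried the markers of their label. The mean log2 level of 10 hepatocyte markers ran from 12.45 to 12.66 over the control litters, from 12.48 to 12.56 at the lower dose and from 12.42 to 12.52 at the higher dose. In bulk tissue, fewer cells of a type and less RNA per cell cannot be told apart. Control liver litters 2, 3 and 5 stood apart in stomach genes: Cym, a gastric protease, was at 11.27, 9.50 and 8.20 in them and between 4.23 and 5.60 in the other 12 liver litters. Over 11 stomach markers the mean level ran from 4.62 to 6.66 in the controls, from 4.57 to 4.78 at the lower dose and from 4.69 to 4.86 at the higher dose. Pancreas genes also varied between liver litters. The mean level of 8 pancreas markers ran from 4.58 to 6.05 in the controls and from 4.65 to 6.01 at the lower dose. At the higher dose it ran from 4.67 to 5.34. Cela2a, a pancreas marker, was at 6.36 in control litter 4 and at 3.27 in control litter 1. The part of these differences in the results was not tested. The calls in liver are also given without control litters 2, 3 and 5, a choice made after the data were seen. That choice leaves 2 controls, litter 4 among them. In lung, litter 1 of the controls and litter 1 of the lower dose stood apart in hepatocyte genes. Of 40 adult hepatocyte enzymes and carriers, 26 were highest of the 5 litters in the former and 32 in the latter. Of 10 hepatocyte markers, 5 and 10 were. These litters differed in muscle genes too. Of 8 cardiac muscle markers, 8 were highest in the former and 7 lowest in the latter. Of 9 skeletal muscle markers, 5 were lowest in the former and 8 in the latter. Same-numbered samples of different doses are separate litters, and the labels do not say whether liver and lung arrays of 1 number share a litter.

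Among the 9 genes, 3 fell in fetal liver at the higher dose, namely Tdo2, Mug1 and Azgp1, each by about 1.5 on the log2 scale. None of the 9 was called at the lower dose, although Tdo2 and Azgp1 differed there by nearly as much. These 2 had an unadjusted limma p under 0.05, a cut-off whose share over all genes was not counted. Afp, Alb, Pzp and Hpd stayed close to their control levels, and Tat and Car3 varied widely between litters. Over all 13269 genes tested in liver, 6.07% were called at the lower dose and 10.5% at the higher dose by limma at an adjusted p under 0.05. Those called lower were 1.81% and 5.22% of all genes, and those called higher 4.26% and 5.3%. The 9 genes had a median change of -0.17 and -0.23, against -0.01 and -0.02 over all genes tested. The genes were chosen with results of these data known, so their counts are a description.

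**Figure D1:**
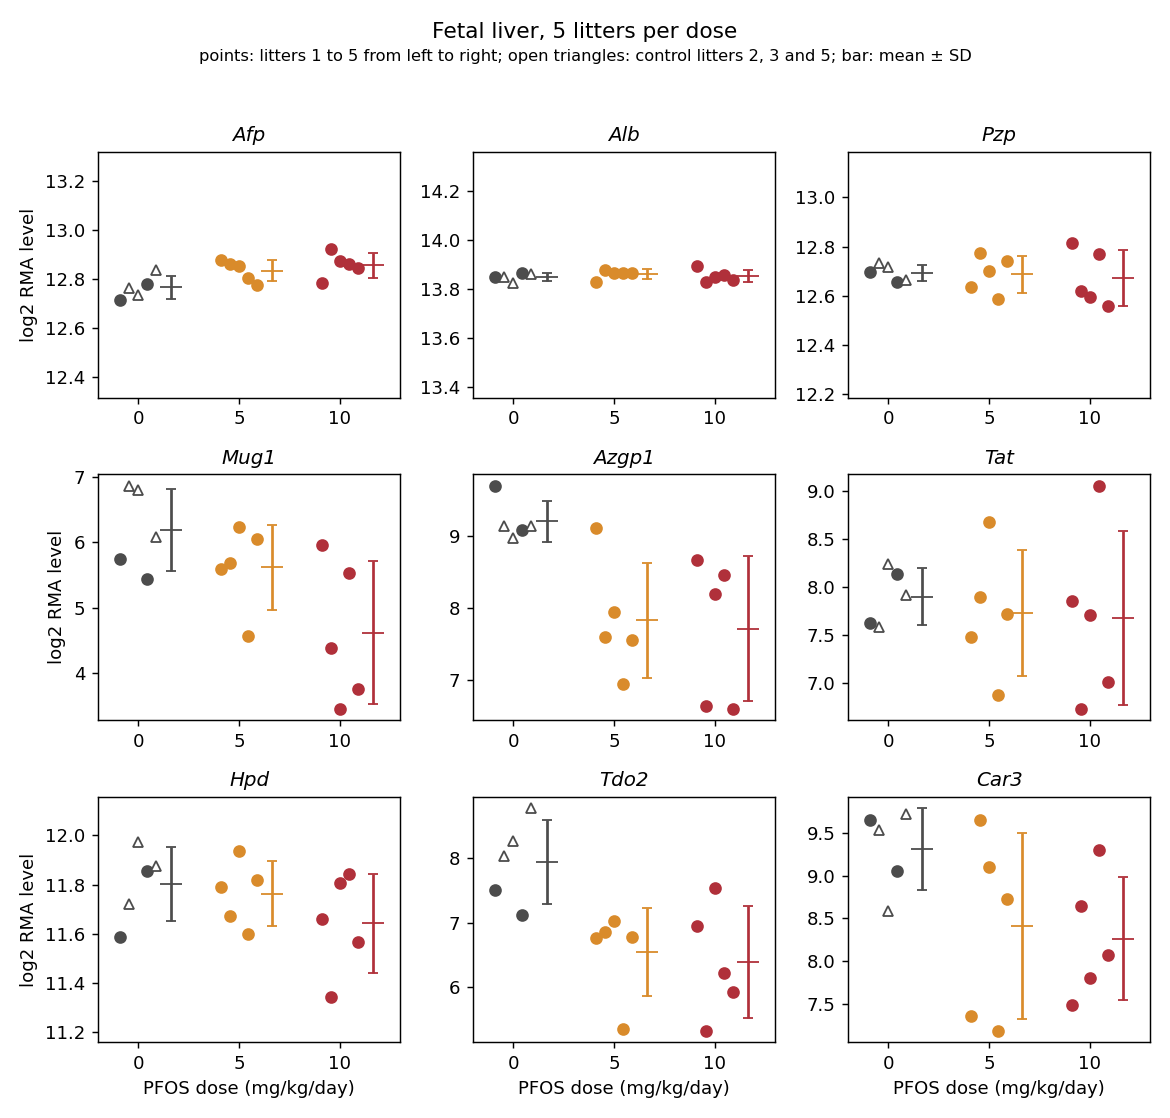
Log2 RMA levels of the 9 genes in fetal liver (vertical axis) by PFOS dose in mg/kg/day (horizontal axis), 1 point per litter, with the mean and SD of 5 litters; open triangles are control litters 2, 3 and 5. Azgp1 lies between 8.97 and 9.70 in the controls and between 6.59 and 8.67 at 10 mg/kg/day, while Alb stays between 13.82 and 13.89 in all 15 litters. Vertical axes differ between panels and do not start at 0.

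Tdo2 encodes tryptophan 2,3-dioxygenase, the liver enzyme that opens the ring of tryptophan. Its level was 7.50, 8.03, 8.27, 7.12 and 8.78 in the control litters, 6.75, 6.85, 7.02, 5.34 and 6.77 at the lower dose, and 6.95, 5.31, 7.53, 6.21 and 5.93 at the higher dose. All 5 litters at the lower dose lay below all controls, whereas at the higher dose litter 3 lay within the control range. Groups that did not overlap, with the exposed litters lower, were found for 2.77% of all genes at the lower dose. The group means were 7.94 ± 0.65 (SD, n = 5), 6.55 ± 0.68 and 6.39 ± 0.87. The change was -1.39 with a limma adjusted p = 0.0572 at the lower dose (SE 0.41), and -1.55 with an adjusted p = 0.0233 at the higher dose (SE 0.41), with 5 of 5 litters below the control mean at each dose. Both other Tdo2 probe sets also had lower means with PFOS, 5.71, 4.62 and 4.42 on one and 5.11, 3.79 and 3.90 on the other. On both, litters at the lower dose overlapped the controls, reaching 5.04 against a lowest control of 4.77 and 4.17 against 3.92. The exposed means of the dimmer one lay below the 40th percentile of the liver arrays, which ran from 4.16 to 4.23. Control litters 2, 3 and 5 held the 3 highest control levels, and without them the changes were -0.76 (adjusted p = 0.569) and -0.93 (adjusted p = 0.404), so that the call was lost.

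Azgp1 encodes zinc-alpha-2-glycoprotein, a secreted protein known for promoting fat breakdown. Control litters had 9.70, 9.14, 8.97, 9.08 and 9.14, the highest of them litter 1. Litters at the lower dose had 9.11, 7.59, 7.94, 6.93 and 7.55, so that litter 1 lay among the controls and the others below them. At 10 mg/kg/day the levels were 8.67, 6.64, 8.19, 8.45 and 6.59, all below every control, a separation shown by 4.41% of genes in that direction. The mean was 9.21 ± 0.29 (SD, n = 5) in controls, 7.82 ± 0.80 at the lower dose and 7.71 ± 1.01 at the higher. The changes were -1.38 ± 0.42 (SE; limma adjusted p = 0.0663) and -1.50 ± 0.42 (adjusted p = 0.0328). With control litters 2, 3 and 5 left out, the changes were -1.57 and -1.68, while the adjusted p was 0.258 and 0.175 with 2 controls left.

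Mug1 encodes murinoglobulin, a protease inhibitor of plasma and a relative of the macroglobulin Pzp. It was at 5.75, 6.87, 6.80, 5.44 and 6.08 in controls, at 5.59, 5.68, 6.23, 4.56 and 6.05 at the lower dose, and at 5.96, 4.39, 3.46, 5.53 and 3.76 at the higher dose. Litters 2, 3 and 5 of the highest dose were low, and litters 1 and 4 lay within the control range. Mug1 exceeded the 40th percentile of the array on 13 of 15 liver arrays. Litters 3 and 5 at the higher dose lay below that level, which ran from 4.16 to 4.23, so the size of the fall rests in part on dim values. The mean went from 6.19 ± 0.63 (SD, n = 5) to 5.62 ± 0.65 and 4.62 ± 1.09. The change was -0.57 ± 0.45 (SE; limma adjusted p = 0.549) at the lower dose and -1.57 ± 0.45 (adjusted p = 0.0364) at the higher. Between the 2 doses it was -1.0 (95% interval -1.96 to -0.04, adjusted p = 0.622), which was not called (0.00754% of genes were). Without control litters 2, 3 and 5, which were the 3 highest controls, the changes were 0.03 (adjusted p = 0.993) and -0.98 (adjusted p = 0.453). A probe set shared by Mug1, Mug2 and Mug-ps1, which cannot separate these near-identical genes, had means of 5.70, 5.21 and 4.43.

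Whether the 3 genes were called varied with the litters in the fit. When each control or higher dose litter was left out in turn, Tdo2 was called in 6 of 10 fits (adjusted p from 0.00791 to 0.0599), Mug1 in 4 of 10 (0.00985 to 0.0988) and Azgp1 in 4 of 10 (0.0180 to 0.0855). Tdo2 lost its call without control litter 3 or 5, or without litter 2 or 5 at the higher dose (adjusted p = 0.0519, 0.0599, 0.0530 and 0.0582). Mug1 lost it without control litter 2, 3 or 5, or without litter 2, 3 or 5 at the higher dose (0.0919, 0.0835, 0.0596, 0.0655, 0.0988 and 0.0940). Azgp1 lost it without control litter 1, 2, 4 or 5, or without litter 2 or 5 at the higher dose (0.0748, 0.0593, 0.0549, 0.0559, 0.0732 and 0.0855). Over these fits the change stayed between -1.84 and -1.29 for Tdo2, between -1.90 and -1.28 for Mug1 and between -1.74 and -1.22 for Azgp1.

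**Figure D2:**
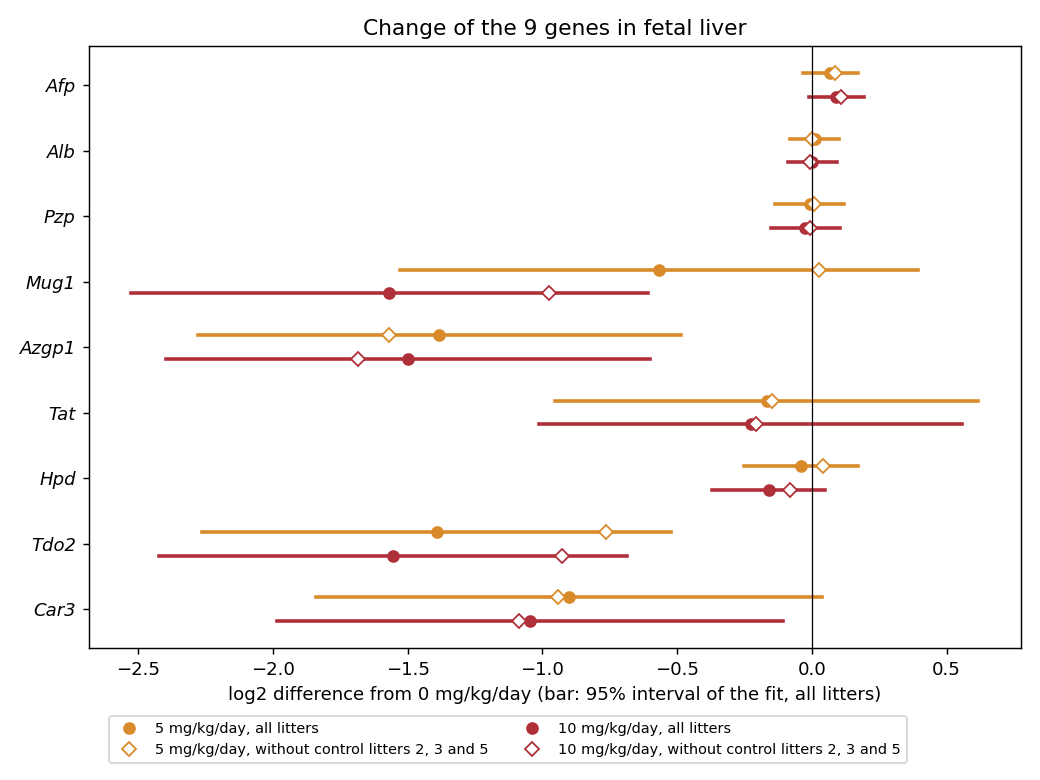
Log2 difference from 0 mg/kg/day in fetal liver (horizontal axis) for each of the 9 genes (vertical axis); filled circles are fits of all litters with their 95% interval, and open diamonds are fits without control litters 2, 3 and 5. Tdo2 moves from -1.55 to -0.93 at 10 mg/kg/day and Mug1 from -1.57 to -0.98, whereas Azgp1 is at -1.50 and -1.68.

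Car3 encodes a carbonic anhydrase that is abundant in adult liver, muscle and fat. The control levels were 9.65, 9.54, 8.58, 9.05 and 9.72, those at the lower dose 7.37, 9.65, 9.10, 7.19 and 8.73, and those at the higher dose 7.49, 8.64, 7.80, 9.30 and 8.07. Litters 1 and 4 at the lower dose and litters 1, 3 and 5 at the higher lay below every control, and the remaining litters lay within the control range. The changes were -0.90 (95% interval -1.84 to 0.04, limma adjusted p = 0.276) and -1.04 (-1.98 to -0.11, adjusted p = 0.157), and neither was called. The second brightest Car3 probe set had means of 6.99, 6.38 and 6.24. Of the markers of fat, in which Car3 is also abundant, Fabp4 was the only one bright enough to test in liver. It was not called, with changes of 0.61 (limma adjusted p = 0.0834) and 0.58. None of the 5 skeletal muscle markers tested was called either. Acta1, 1 of them, was at 7.27 and 6.90 in litters 2 and 4 at the lower dose and at most 5.99 in the other livers. The part of fat or muscle in the Car3 levels was not tested.

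Tat encodes tyrosine aminotransferase, which starts tyrosine breakdown, and Hpd the next enzyme of that pathway. Tat was at 7.62, 7.58, 8.24, 8.14 and 7.91 in controls, at 7.48, 7.90, 8.68, 6.88 and 7.72 at the lower dose and at 7.86, 6.73, 7.71, 9.06 and 7.01 at the higher dose. The exposed litters lay both above and below the controls, with an SD of 0.30 in controls, 0.66 at the lower dose and 0.91 at the higher. The mean change was -0.17 (95% interval -0.95 to 0.62, limma adjusted p = 0.854) and -0.23 (-1.01 to 0.56, adjusted p = 0.775). Hpd was at 11.59, 11.72, 11.98, 11.86 and 11.88 in controls, at 11.79, 11.67, 11.94, 11.60 and 11.82 at the lower dose, and at 11.66, 11.34, 11.81, 11.84 and 11.57 at the higher. Its groups overlapped, with changes of -0.04 (-0.25 to 0.17) and -0.16 (-0.37 to 0.05).

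Pzp, the macroglobulin known as pregnancy zone protein, was at 12.70, 12.73, 12.72, 12.66 and 12.67 in controls. Exposed litters had 12.64, 12.77, 12.70, 12.58 and 12.74 at the lower dose and 12.81, 12.62, 12.59, 12.77 and 12.56 at the higher dose, on both sides of the controls. The changes were -0.01 (95% interval -0.14 to 0.12) and -0.02 (-0.15 to 0.11).

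Afp was at 12.71, 12.76, 12.73, 12.78 and 12.83 in control livers, at 12.88, 12.86, 12.85, 12.80 and 12.77 at the lower dose and at 12.78, 12.92, 12.87, 12.86 and 12.84 at the higher dose. All 5 litters of each dose lay above the control mean, but on this probe set the groups overlapped. The change was 0.07 (95% interval -0.03 to 0.17, limma adjusted p = 0.486) and 0.09 (-0.01 to 0.19, adjusted p = 0.274), and neither was called. A second Afp probe set, brighter in liver, had means of 13.16, 13.26 and 13.27, and the next brightest had 11.65, 11.71 and 11.78. On both of these the litters at the higher dose lay above every control, from 13.23 to 13.32 against 13.10 to 13.22 and from 11.71 to 11.85 against 11.61 to 11.70, a separation shown by 4.63% of genes in that direction, while those at the lower dose overlapped the controls. These 2 probe sets were not tested one by one. Alb ranged from 13.82 to 13.87 in controls, from 13.83 to 13.88 at the lower dose and from 13.83 to 13.89 at the higher dose, with changes of 0.01 (-0.08 to 0.10) and 0.00 (-0.09 to 0.09). Its probe set was the brightest or second brightest of all on every liver array, and the array maxima ran from 13.82 to 13.95, so a difference at this level may be compressed.

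The 9 genes differed in how much litters of 1 dose varied. The SD within dose groups was 0.02 for Alb, the smallest of all genes tested in liver, 0.05 for Afp and 0.08 for Pzp, against a median of 0.14. Hpd lay near that median with 0.16. Tat, Tdo2, Azgp1, Car3 and Mug1 had 0.67, 0.74, 0.76, 0.80 and 0.82, all above the 99th percentile of genes tested. Brightness differed too: Alb, Afp, Pzp and Hpd were among the 341 brightest probe sets on every liver array, and the other 5 were dimmer. Since spread may be compressed among the brightest probe sets, the small SD of Alb, Afp and Pzp does not show that their transcripts varied less. Litter 4 at the lower dose was lowest of its group in all 7 genes picked as late. No other age was measured, so their late start was not tested. Among the litters at the higher dose, litter 5 was in the lowest 2 for 6 of the 7 genes, and litter 4 for none.

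Within 2 pairs of genes the members varied together between litters after the dose group means were removed. Mug1 followed Pzp with Pearson r = 0.869 and Spearman rho = 0.882 (permutation p = 0.00075, adjusted p = 0.0239 over 36 pairs, n = 15 litters), and r was 0.812 without the 2 litters farthest from the median of Mug1. Tat followed Hpd with r = 0.805 and rho = 0.800 (permutation p = 0.00133, adjusted p = 0.0239), and r was 0.722 without the 2 farthest litters. Of the 36 pairs, 29 had a positive r, and the share over all gene pairs was not counted. Such likeness was not particular to these pairs. The 3 genes most like Pzp had r of at least 0.887 and those most like Hpd at least 0.901, with Mug1 and Tat not among them. Both calls were lost without litter 4 at the lower dose or without litter 1 or 2 at the higher dose, and that of Tat and Hpd also without litter 3 at the lower dose, with r from 0.747 to 0.844 for Tat and Hpd and from 0.814 to 0.917 for Mug1 and Pzp over all such fits.

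**Figure D3:**
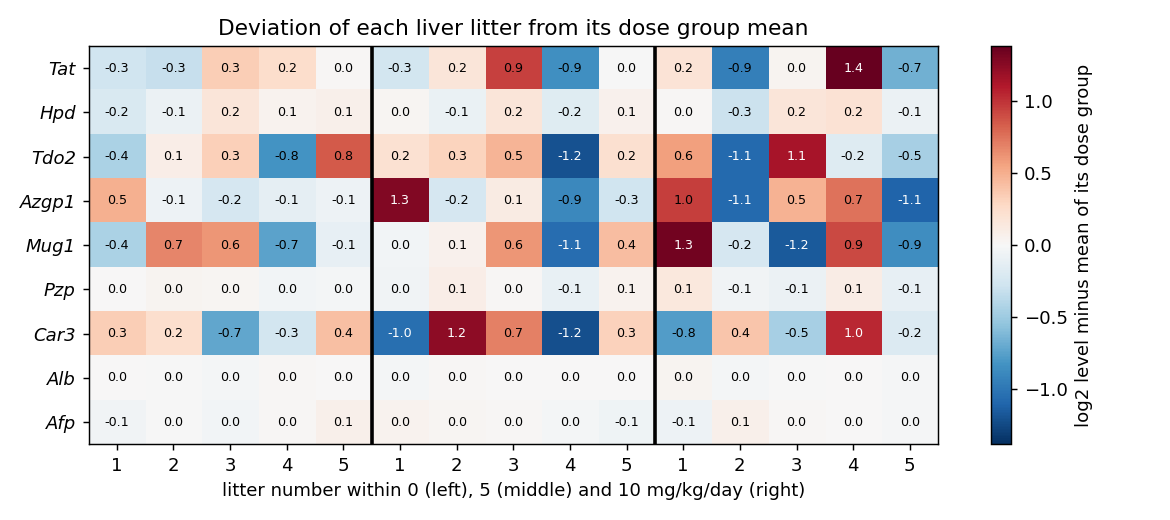
Deviation of each liver litter (columns, litters 1 to 5 at 0, 5 and 10 mg/kg/day) from the mean of its dose group for the 9 genes (rows), in log2 units, by colour and printed value. Litter 4 at 5 mg/kg/day is below its group mean in all 7 genes picked as late, and Alb and Afp stay within 0.1 of theirs.

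Among 12660 tested genes with a full symbol, those whose litter deviations were most like each member over 15 livers were named by r, as a description. For Tat they were Adtrp (0.926), Cyp2c39 (0.921) and Abhd6 (0.919), and for Hpd Papss2 (0.911), Alg1 (0.911) and Eci2 (0.901). For Mug1 they were Kat2b (0.905), Man1a (0.890) and Pzp itself (0.869), and for Pzp Gp1bb (0.896), Grrp1 (0.891) and Nsfl1c (0.887). Tdo2 was most like Ccser2 (0.875), Coq8b (0.851) and Gchfr (0.847), Azgp1 most like Acnat2 (0.871), Snrnp200 (0.851) and Serping1 (0.850), and Car3 most like Dbnl (0.858), Rock1 (0.823) and Blnk (0.821). Afp was most like Hdac4 (0.888), Cst3 (0.796) and Igf2os (0.787), and Alb most like Odr4 (0.920), Clec7a (0.876) and Amz2 (0.874), within ranges of litter deviation of about 0.1.

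Other genes of adult hepatocytes changed in part. Of 40 adult hepatocyte enzymes and carriers tested, the lower dose had 3 risen and 4 fallen and the higher dose 3 risen and 10 fallen. Over all genes, 4.26% and 5.3% were called higher and 1.81% and 5.22% lower at these doses. The medians were -0.01 and -0.12 against -0.01 and -0.02 over all genes. At 10 mg/kg/day Inmt, an N-methyltransferase, rose by 1.71, Mbl2, a lectin of innate immunity, fell by 1.25, Cyp2f2, a cytochrome P450, fell by 1.24 and Cyp2e1, an ethanol-oxidising P450, fell by 0.68 (limma adjusted p = 0.0147, 2.9e-05, 0.000258 and 0.0232). With control litters 2, 3 and 5 left out, Mbl2 was called lower at each dose and Cyp2f2 at the higher. Cpn1 was called higher at each dose. At the higher dose Inmt was at 2.03 with a limma adjusted p = 0.0698, and Cyp2e1 was at -0.68. With 2 controls left, 295 and 540 of all genes were called in place of 805 and 1395. Of 7 tested tyrosine and phenylalanine genes none was called at either dose. In tryptophan breakdown, 8 genes were tested. Aadat, an aminotransferase of the kynurenine branch, rose by 0.58 and 0.67, and Tdo2 alone fell, at the higher dose. Without control litters 2, 3 and 5 none was called at either dose. Aadat was then at 0.63 and 0.72 (limma adjusted p = 0.149 and 0.0668).

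Of 11 fetal liver genes, 2 fell at each dose and 1 rose, at the higher. Over all genes, 1.81% and 5.22% were called lower and 4.26% and 5.3% higher at the lower and the higher dose. In lists this short the counts here and below are a description. Gpc3, a growth-regulating proteoglycan, fell by 0.47 and 0.77, Igf2, a fetal growth factor, fell by 0.34 and 0.32, and Peg3, an imprinted gene, rose by 0.50 at the higher dose. Without control litters 2, 3 and 5 none was called at the lower dose, and Gpc3 alone, which fell, at the higher. With 2 controls left, Gpc3 was at -0.45 at the lower dose and Peg3 at 0.57 at the higher. Igf2 was at -0.30 and -0.28. Of 17 regulators of Afp and of hepatocyte maturation, 2 rose at each dose, the transcription factors Tbx3 by 0.85 and 0.86 and Cebpb by 0.36 and 0.56. Without those litters Tbx3 was called at each dose, at 1.11 and 1.12. Cebpb was called at the higher dose alone, at 0.67, and was at 0.47 at the lower. Of 14 glucocorticoid-responsive genes, 1 fell at the lower dose and 3 at the higher dose, Tdo2 among them. Tsc22d3, a glucocorticoid-induced leucine zipper protein, fell by 0.24 and 0.39, and Errfi1, an inhibitor of growth factor receptors, fell by 0.48 at the higher dose. Without those litters none was called lower at the lower dose and Tsc22d3 alone at the higher. Cdkn1a was called higher at the lower dose. Tsc22d3 was then at -0.24 at the lower dose and Errfi1 at -0.48 at the higher.

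Of 9 carbonic anhydrases tested, each dose had 1 that rose, while 1 fell at the lower dose and 3 at the higher. The shares over all genes were 4.26% and 5.3% called higher and 1.81% and 5.22% called lower. Car7 rose by 1.29 and 1.16, Car8 fell by 0.40 and 0.67, and Car5a, a mitochondrial enzyme, and Car14 fell by 0.69 and 0.45 at the higher dose, while Car3 was not called. Without control litters 2, 3 and 5 Car8 alone was called, at the higher dose. Car7 was then at 1.24 and 1.11 (limma adjusted p = 0.103 and 0.117), with 2 controls left. At the higher dose Car5a was at -0.46 and Car14 at -0.52. Of 3 albumin family genes none was called, and Afm had the smallest p with -0.18 and -0.20 (limma adjusted p = 0.157 and 0.0894). Of 4 macroglobulin and related genes tested, Mug1 alone was called. Of the 10 hepatocyte markers, Ahsg and Apoa1 fell by 0.18 and 0.17 at the higher dose. Among markers of other cells at that dose, 3 of 8 granulocyte markers fell (Elane by 0.37, Ltf by 0.38 and Prtn3 by 0.41). So did 1 of 7 macrophage markers, 1 of 7 endothelial markers, 2 of 7 stellate and smooth muscle markers, 1 of 8 pancreas markers and 1 of 8 stomach markers. None of 5 erythroid markers was called. Of all genes, 5.22% were called lower at that dose, and in lists this short 1 call does not show a change of the cell type. Without control litters 2, 3 and 5 the hepatocyte, macrophage, stellate and smooth muscle, pancreas and stomach markers had no call at that dose. Ahsg and Apoa1 were then at -0.19 and -0.18. Elane, 1 of 8 granulocyte markers, and Stab2, 1 of 7 endothelial markers, were called lower, as were 176 of all 13269 genes. Epcam, 1 of 5 bile duct and hepatoblast markers, was called higher, as were 364 genes. The others of these 5 ran from -0.20 (Sox9) to 0.12 (Cldn4), uncalled. With all litters none of the 5 was called. Their part in the changes of the 9 genes was not tested.

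In fetal lung, none of the 8 genes tested was called at either dose by limma, where 0.0155% of 12897 genes were called at the lower dose and 0.0543% at the higher dose. Mug1 was dim in lung, exceeding the 40th percentile of its array on 2 of 15 arrays, and was not tested. At an unadjusted p under 0.05 in limma's fit, 0 of the 8 passed at the lower dose and 1 at the higher, which was Afp. The share of all lung genes passing that cut-off was not counted, so this count is a description. Afp was at 8.29, 9.91, 10.00, 11.20 and 10.77 in control lungs, at 9.63, 10.90, 10.99, 11.19 and 11.51 at the lower dose and at 10.17, 11.65, 11.23, 11.22 and 11.74 at the higher dose, with litter 1 lowest in each group. The change was 0.81 (95% interval -0.19 to 1.81, limma adjusted p = 0.998) and 1.17 (0.17 to 2.17, adjusted p = 0.642). Without litter 1 of the control and lower dose groups it was 0.68 and 0.73. That fit kept litter 1 at the higher dose, which was low too, so the 0.73 is not like for like. The means of the other 4 litters were 10.47 in controls, 11.15 at the lower dose and 11.46 at the higher.

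Litter 1 of the control and lower dose groups was highest of its lung group in 8 of the 9 genes and lowest in Afp. Tdo2 was at 6.86 in control litter 1 and from 4.0 to 4.54 in the other 4, and at 6.57 in litter 1 at the lower dose and from 3.74 to 4.06 in the others. Mug1 was at 6.14 against 2.30 to 2.66, and at 6.64 against 2.62 to 3.11. Alb was at 13.11 against 11.70 to 12.46, and at 13.17 against 12.02 to 12.34. At 10 mg/kg/day litter 1 was lowest of its group in all 10 hepatocyte markers, with Alb at 11.22 against 12.04 to 12.52. The cause of these differences was not tested. Every member's mean was lower in lung than in liver at each dose, by 5.95 for Hpd in the controls. For Alb, which lay near the maximum of the liver arrays, the difference of 1.60 may be understated.

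**Figure D4:**
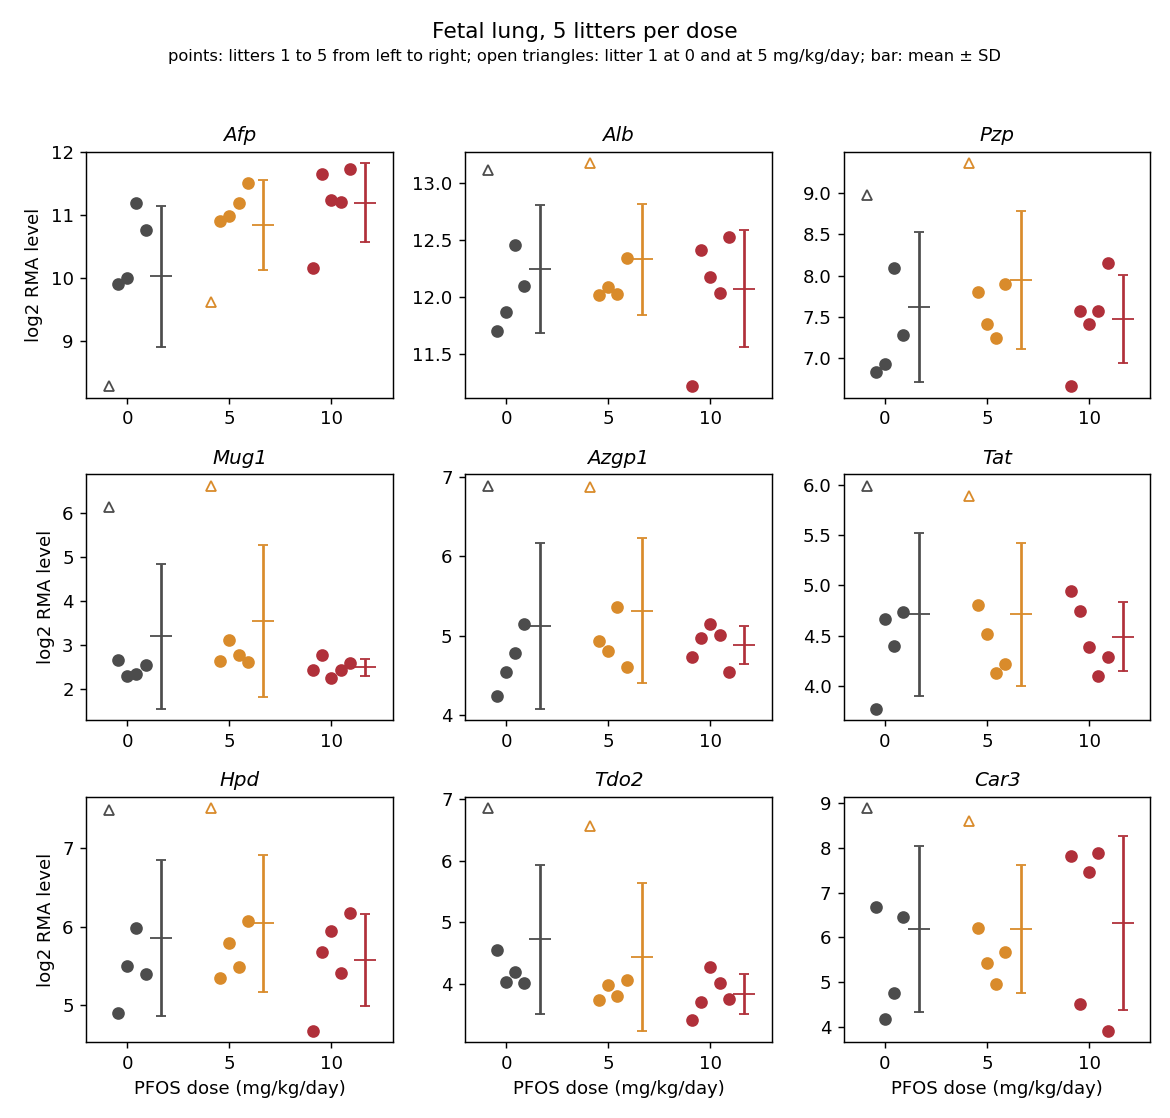
Log2 RMA levels of the 9 genes in fetal lung (vertical axis) by PFOS dose in mg/kg/day (horizontal axis), 1 point per litter, with the mean and SD of 5 litters; open triangles are litter 1 at 0 and at 5 mg/kg/day. Mug1 is at 6.14 and 6.64 in those litters and at most 3.11 in the other 13, and vertical axes differ between panels and do not start at 0.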

How the data were processed

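The deposited values are log2 probe set levels made by the authors with RMA, per the submitters' processing notes; which version was run is not given in the sources used here. RMA compresses changes of dim and of near-saturated probe sets. Array number limits the precision. Of 45101 probe sets, 34945 had 1 symbol in the platform annotation and 932 several; those with 1 gave 18193 genes, each read from the brightest of its probe sets by mean level. Tests covered genes that exceeded the 40th percentile of the array on 5 or more of the 15 arrays of a tissue.

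Liver and lung were fitted apart in limma 3.58.1 (R 4.3.3) with a mean for each dose, and two-sided p-values were adjusted by Benjamini-Hochberg over all genes tested. Litter deviations were correlated with 100000 permutations within dose groups, adjusted over 36 pairs, in Python 3.11.15 with numpy 2.4.6 and pandas 2.3.3, and drawn with matplotlib 3.10.9. Both tests were tested on simulated data. The members and lists were chosen with earlier results of these data known. Named genes were all 9 members, per list up to 4 genes called in liver by size or else up to 2 with the smallest p, and per member the 3 most alike; the text gives a subset. Alternatives were other filters, quantile normalization, averaged probe sets, other arrays in the fit, a trended robust spread, array weights, the replicate block and leaving out litters.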

Additional observations from a re-analysis of the deposited data

Results flagged for a closer look

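In 54 groups of 5 litters, 8 held a litter whose gap to its nearest neighbour was large for the range of the group. Taken singly, a group is flagged by chance about 1 time in 20. The groups are 9 genes read on the same arrays, so they are not independent and the count of 8 is a description. In liver these were Tdo2 at 5 mg/kg/day, where litter 4 was at 5.34 and the next at 6.75, Azgp1 in controls, where litter 1 was at 9.70 and the next at 9.14, and Alb at 5 mg/kg/day, where litter 1 was at 13.83 and the next at 13.86. In lung all 5 were litter 1: Tdo2 at 6.86 in controls and 6.57 at 5 mg/kg/day, Mug1 at 6.14 and 6.64, and Alb at 13.17 at 5 mg/kg/day, against nearest values of 4.54, 4.06, 2.66, 3.11 and 12.34.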

How the results depend on the processing

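No change of a member that was called in any fit reversed its sign. At 5 mg/kg/day in liver, where no member was called, 2 were called (Tdo2 and Azgp1) under a stricter filter, with the 2 groups alone and with the replicate block, 1 (Tdo2) with averaged probe sets and 1 (Azgp1) with array weights. At 10 mg/kg/day 1 member, Tdo2, was left with a trended robust spread, where Mug1 and Azgp1 had an adjusted p = 0.0607 and 0.0617. Mug1 also lost its call with the 2 groups alone (0.0572), with both tissues in 1 fit (0.138) and with the replicate block (0.0754). Without control litters 2, 3 and 5, 295 genes were called at 5 and 540 at 10 mg/kg/day, in place of 805 and 1395, and 0 members. The replicate numbers do not pair doses: samples of 1 number correlated in their deviations with r from -0.137 to 0.132 in liver and from -0.306 to 0.274 in lung, and 4 of 15 and 2 of 15 correlated best with their own number. With the block, 726 and 1200 genes were called in liver and 2 and 4 in lung. Between 10 and 5 mg/kg/day in liver, 1 gene was called, 6 when the tissues were fitted together and 0 with the block. In lung 2 genes were called at 5 mg/kg/day, 4 when liver and lung were fitted together and 1 without litter 1 at 0 and 5 mg/kg/day; at 10 mg/kg/day 7 were called, 4 without a filter, 3 with averaged probe sets, 13 with both tissues in 1 fit, and 4 with array weights. Leaving out 1 litter gave 599 to 758 and 1001 to 1338 genes and 0 to 1 and 0 to 3 members in liver at 5 and 10 mg/kg/day, 0 to 4 genes between these doses, 2 to 3 and 3 to 11 genes in lung, and 0 to 2 correlated pairs. The cause of these shifts was not tested.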

Other observations

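Across tissues, liver and lung arrays of the same dose and number correlated in their deviations from the group mean with r from 0.001 to 0.354 across genes, and 13 of the 15 liver arrays correlated best with the lung array of their own number. The labels do not say whether these arrays share a litter.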
